A study of Mus musculus with 10 samples.

Results

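The genes described here are 57 developmental transcription factor genes of lineages other than microglia, taken from 20696 autosomal protein-coding genes. They were chosen by name from 11 families: PAX, LIM homeodomain, NKX, DLX and MSX, the sine oculis-related genes Six2, Six3 and Six6, the OTX, EMX and GSX homeobox genes, GATA, T-box, forkhead, the neurogenic basic helix-loop-helix (bHLH) genes and SOX. The rule uses names and no measured value, but earlier results of these data were known when the genes were chosen. Each gene was read at 2 features of the chromatin of microglia, the resident macrophages of the brain. The first was H3K4me3, trimethylation of lysine 4 of histone H3, within 1 kb of a transcription start site (TSS). The second was the set of DNA contacts of the 5 kb bin that holds a TSS, from PLAC-seq, a proximity ligation assay that enriches contacts at chromatin carrying a chosen mark.

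All cells were wild-type microglia of strain C57/Bl6, sorted from brain as CD45+ CD11b+ CX3CR1+. H3K4me3 ChIP-seq had 2 libraries of 12.8 and 13.4 M tags, with input libraries, and PLAC-seq had 2 libraries that the authors combined in 1 list of 26689 interactions. The labels give no age, and nothing in them shows that the replicates were different mice, so the spread between replicates may be technical. The series also holds Hi-C libraries of wild-type mice and of mice lacking an enhancer of Sall1, which were not analysed here. A single genotype was therefore described, with no test between groups. The files used here hold no RNA, so expression of the 57 genes was not analysed here. The cells matched their label at the level of H3K4me3: all 14 autosomal microglia marker genes examined, P2ry12, Tmem119 and Csf1r among them, carried the mark in both replicates, at a median of 215.8 tags per 10 M tags.

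Transcription factors of these families set up the body plan and the identity of neurons, heart, kidney, gut, skin and other tissues, and most act in embryos or in cell types other than macrophages. Their promoters often lie in CpG islands, stretches of DNA rich in the CpG dinucleotide. In embryonic stem cells many such genes are held silent by Polycomb proteins while their promoters carry both H3K27me3, the repressive mark of Polycomb, and low H3K4me3, the mark of active promoters. H3K27me3 was not analysed here.

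The starts of 6 of these genes show the range of sequence on which the mark was or was not found. Each window is 300 bases of the GRCm38.p6 RefSeq promoter table, 250 before and 50 after the annotated start, in the direction of transcription, with CpG dinucleotides in capitals. Of the 57 genes, 43 had an entry in that table. Gata3, Gata2 and Lhx1 had the highest H3K4me3 of the marked genes with an entry, Lhx9 had the lowest, and Isl1 and Foxd3 were not marked in both replicates. Foxd3 and Lhx1 were added to the sequences shown after their values had been seen.
Gata3, chr2:9878551-9878850, minus strand: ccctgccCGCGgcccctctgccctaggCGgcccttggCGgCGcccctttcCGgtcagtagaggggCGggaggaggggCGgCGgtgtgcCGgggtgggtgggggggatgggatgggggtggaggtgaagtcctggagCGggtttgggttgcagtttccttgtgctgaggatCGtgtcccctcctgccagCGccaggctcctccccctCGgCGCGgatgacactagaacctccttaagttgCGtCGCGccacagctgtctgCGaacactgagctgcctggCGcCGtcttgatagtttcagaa
Gata2, chr6:88198414-88198713, plus strand: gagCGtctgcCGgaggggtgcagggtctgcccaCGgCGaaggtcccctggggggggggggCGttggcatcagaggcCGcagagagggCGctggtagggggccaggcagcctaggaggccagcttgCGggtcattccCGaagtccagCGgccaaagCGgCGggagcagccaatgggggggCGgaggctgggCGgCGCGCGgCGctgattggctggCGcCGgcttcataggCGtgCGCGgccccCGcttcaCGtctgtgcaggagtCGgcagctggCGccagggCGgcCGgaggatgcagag
Lhx1, chr11:84525485-84525784, minus strand: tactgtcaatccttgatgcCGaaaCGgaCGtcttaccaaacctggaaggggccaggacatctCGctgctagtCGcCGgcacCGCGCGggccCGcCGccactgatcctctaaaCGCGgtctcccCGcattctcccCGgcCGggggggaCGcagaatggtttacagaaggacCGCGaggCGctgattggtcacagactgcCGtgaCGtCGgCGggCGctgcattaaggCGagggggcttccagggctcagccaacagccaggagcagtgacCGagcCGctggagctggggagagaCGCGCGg
Lhx9, chr1:138842395-138842694, minus strand: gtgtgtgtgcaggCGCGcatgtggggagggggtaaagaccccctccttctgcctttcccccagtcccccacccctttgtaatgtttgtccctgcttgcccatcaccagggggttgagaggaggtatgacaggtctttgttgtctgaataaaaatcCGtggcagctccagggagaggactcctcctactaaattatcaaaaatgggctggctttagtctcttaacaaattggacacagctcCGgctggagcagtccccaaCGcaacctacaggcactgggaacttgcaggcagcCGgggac
Isl1, chr13:116309639-116309938, minus strand: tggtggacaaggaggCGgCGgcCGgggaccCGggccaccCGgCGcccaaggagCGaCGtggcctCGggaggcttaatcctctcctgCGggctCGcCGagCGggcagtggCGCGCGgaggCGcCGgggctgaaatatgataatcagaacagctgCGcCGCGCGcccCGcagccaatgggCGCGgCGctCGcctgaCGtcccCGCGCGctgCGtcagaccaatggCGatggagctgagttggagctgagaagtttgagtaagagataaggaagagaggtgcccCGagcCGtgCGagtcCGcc
Foxd3, chr4:99656049-99656348, plus strand: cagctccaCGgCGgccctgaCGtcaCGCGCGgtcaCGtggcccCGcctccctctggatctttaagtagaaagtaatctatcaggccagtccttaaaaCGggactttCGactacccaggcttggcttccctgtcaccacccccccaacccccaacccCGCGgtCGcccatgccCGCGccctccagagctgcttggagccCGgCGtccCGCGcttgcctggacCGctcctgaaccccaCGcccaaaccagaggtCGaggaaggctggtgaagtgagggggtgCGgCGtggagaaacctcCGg

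The Gata3, Gata2 and Lhx1 windows held 22, 29 and 31 CpG and were touched by H3K4me3 peaks of both replicates. The peaks touching the Gata3 window had 40.5 and 40.3 tags per 10 M. The taller Gata3 peaks, from which its value was taken, lay outside the window. The Isl1 window held the most CpG of the 6, with 37, a number reached by 5.58% of all 32851 promoters in the table. The nearest peak to it lay 402.1 kb away in replicate 1 and 714.8 kb away in replicate 2. Among the 6, the CpG-richest window was the one farthest from any called peak. The windows were picked by their mark, so they cannot show how CpG and mark are related. The Foxd3 window held 25 CpG and no peak touched it, the nearest lying 778 bp away in replicate 1 and 1132 bp away in replicate 2. The Lhx9 window held 6 CpG, close to the median of 7 over all promoters, and no peak touched it. The nearest lay 819 bp away in replicate 1 and 1022 bp away in replicate 2, with 28.0 and 34.3 tags per 10 M. By the 1 kb rule used below, these were not counted for Lhx9, although they were taller than the peaks that were. The peaks that counted for Lhx9 lay at other starts of the gene, near 138847305 and 138848827 on chromosome 1.

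The first question was how many of these promoters carried H3K4me3. Genes were called marked where both replicates had a peak at most 1 kb from a TSS. The mark was present at 32 of the 57 genes (56.1%), against 59.4% of all autosomal protein-coding genes, a share near the background. The reading depends on the rule: with peaks of at least 20 tags per 10 M the mark was present at 18 of the 57 (31.6%), against 54.9% of all genes, and within 2 kb at 39 of the 57 (68.4%), against 60.4%. With peaks shared with another gene's start left out it was present at 28 (49.1%), against 41.9%. By the 1 kb rule, a further 6 genes had a peak in 1 replicate only and 19 had none. The height of the mark was low. The value of a gene was that of its tallest such peak, in tags per 10 M tags of the library, averaged over the replicates. The 32 marked genes had a median value of 28.2, from 7.25 at Lhx9 to 84.5 at Foxc2, against a median of 220.4 over all 12291 marked genes, a ratio of 0.128. All 32 lay under 126.5, the 25th percentile of all marked genes, and their own percentiles ran from 0.321 to 19.1. A value of 100 or more was reached by 0 of the 32, against 79% of all marked genes. Of the 32, 13 lay under 20, 13 between 20 and 50, and 6 at 50 or more. In a pool of sorted cells, a low mark in all cells and a mark in a few of them cannot be told apart.

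**Figure D1:**
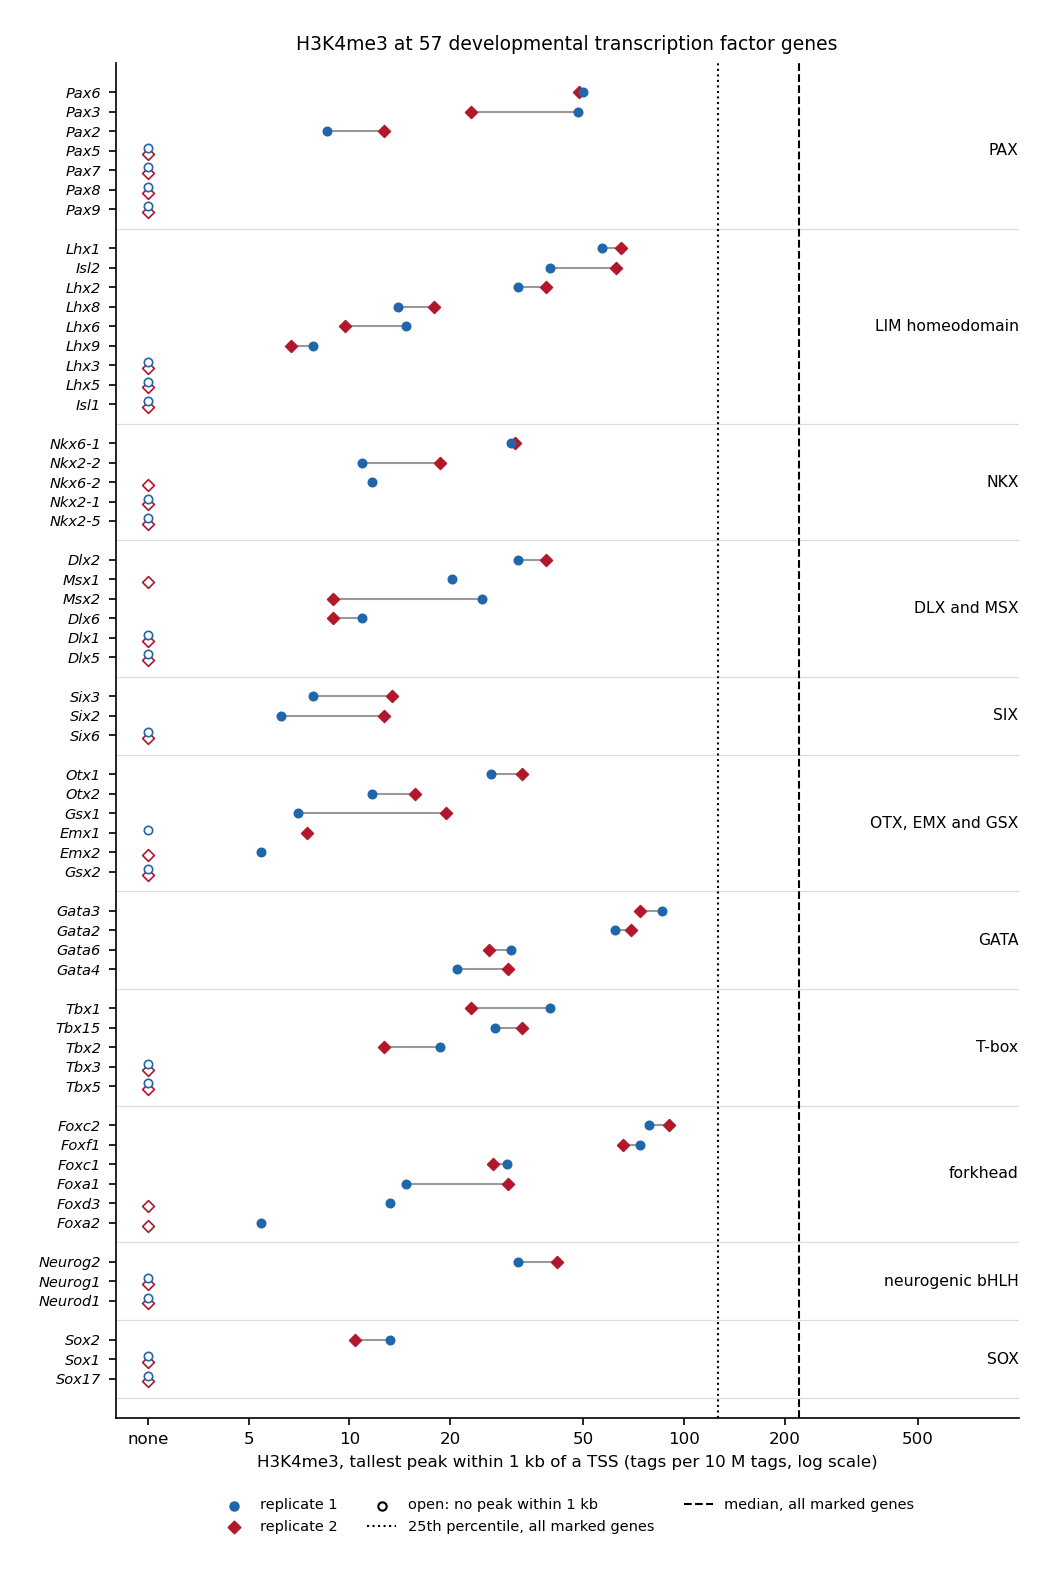
Value of the tallest H3K4me3 peak within 1 kb of a TSS in replicate 1 (circles) and replicate 2 (diamonds) for each of the 57 genes, in tags per 10 M tags on a log axis, by family; open symbols mark no peak, and vertical lines give the 25th percentile (126.5) and the median (220.4) of all marked genes. Every gene with a value lies left of the dotted line. The 4 GATA genes of the 57 are all marked, and 4 of 7 PAX genes have no peak. Over all genes, 59.4% were marked.

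The forkhead family held the gene with the highest mean over replicates, Foxc2, although Gata3 was higher in replicate 1 (85.7). Foxc2, a regulator of lymphatic and mesodermal development, had 78.7 in replicate 1 and 90.3 in replicate 2, at its UTR on chromosome 8 (121116174 to 121116358 in replicate 1). Foxf1, which acts in the mesenchyme and vessels of the lung, lies 31.8 kb from Foxc2 and had 74.0 and 65.6. These 2 neighbours had the highest and the third highest mean of the 57 genes. The Foxf1 peak lay 498 bp upstream of the TSS in replicate 1 and 569 bp in replicate 2, and also within 1 kb of the start of the gene model Gm27530. Foxc1, a relative of Foxc2 with roles in the eye and skeleton, had 29.6 and 26.9 and covered the TSS in both replicates. Foxa1, a pioneer factor of endoderm, had 14.8 and 29.8. Foxa2, its relative in gut and floor plate, had 5.45 in replicate 1 and no peak within 361.2 kb in replicate 2. Foxd3, a neural crest factor, had 13.2 in replicate 1 and none within 1 kb in replicate 2. In this family 4 of 6 genes were marked, at 22.3 to 84.5 and a median of 49, and each of the 6 had a peak in at least 1 replicate.

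The GATA family was the only one of the 11 with a mark at every member examined, 4 of 4, at a median of 47. Gata3, a factor of T cells and of breast epithelium, had 85.7 and 73.8, in an intron 797 and 714 bp upstream of the nearest coding start. Gata2, a factor of blood stem cells and mast cells, had 62.3 and 69.4, in its UTR. Gata6, a factor of endoderm and heart that peritoneal macrophages also express, had 30.4 and 26.1. These tallest peaks lay 899 and 994 bp from the TSS, and lower peaks lay closer, the nearest at 95 and 222 bp. Gata4, a heart and endoderm factor, had 21 and 29.8 on the TSS itself. Gata2 and Gata3 were higher than Gata4 and Gata6 in both replicates. This covers only 4 genes, and a link to the cells that express them was not tested. Gata1, on the X chromosome, was not used here.

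LIM homeodomain genes, which give neurons their subtype and also pattern head, kidney and gonad, were marked in 6 of 9 cases, at a median of 25.6. Lhx1, a factor of the head organizer and the kidney, had 56.9 and 64.9 on its TSS. Isl2, a motor neuron factor, had 39.7 and 62.7. Both starts are shared within 1 kb with other gene models, Lhx1os and Gm17226, and reads of a histone mark cannot be given to one strand, so the starts cannot be told apart. Lhx2, needed for eye, forebrain and hair follicles, had 31.9 and 38.8, at different starts of the gene (38339475 and 38351058 on chromosome 2), so the pair is not 1 site measured in both replicates. Lhx6 and Lhx8, paired in the ventral forebrain where they specify interneurons and cholinergic neurons, were low. Lhx6 had 14.8 and 9.7, and Lhx8 had 14 and 17.9. Lhx9, a gonad factor, had 10 tags in replicate 1 and 9 in replicate 2, or 7.79 (exact 95% interval 3.74 to 14.3) and 6.71 (3.07 to 12.7). Those intervals cover counting error only. The peaks of Lhx9 did not overlap each other. Isl1, Lhx3 and Lhx5, factors of motor neurons, pituitary and forebrain, had no peak within 1 kb.

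PAX genes were marked in 3 of 7 cases, at a median of 35.7. Pax6, the eye and forebrain regulator, had 49.9 and 48.5, with 4 peaks within 1 kb of its starts in each replicate. Pax3, a neural crest and muscle factor, had 48.3 and 23.1, and its tallest peaks did not overlap although each touched a TSS. Pax2, of kidney and midbrain, had 8.57 and 12.7. Pax5, which commits B cells, had no peak within 1 kb but low ones 1507 and 1573 bp upstream, of 10.1 and 9.7. Pax7, Pax8 and Pax9, of muscle, thyroid and pharyngeal pouches, had their nearest peaks 87.8 kb or more away.

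T-box genes, regulators of heart, limb and pharynx, were marked in 3 of 5 cases. Tbx1, of the pharyngeal arches, had 39.7 and 23.1. Tbx15, of skeleton and skin, had 27.3 and 32.8. Tbx2, of heart and limb, had 18.7 and 12.7, in peaks also within 1 kb of the start of the gene model 2610027K06Rik. Tbx3 and Tbx5, which lie 163.6 kb apart on chromosome 5, had no peak of either replicate within 281.9 kb. NKX genes were marked in 2 of 5 cases. Nkx6-1, of pancreatic beta cells and motor neurons, had 30.4 and 31.3. Nkx2-2, of ventral spinal cord and pancreas, had 10.9 and 18.6. Nkx6-2 had 11.7 in replicate 1 only, while the heart gene Nkx2-5 and the lung, thyroid and forebrain gene Nkx2-1 had none.

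The homeobox genes of forebrain and face were low where they were marked. Dlx2, a factor of forebrain interneurons, had 31.9 and 38.8, and Dlx6, of jaw and forebrain, had 10.9 and 8.95. Their cluster partners behaved differently in the call: Dlx1, 18.6 kb from Dlx2, had no peak within 1 kb of its coding start but peaks of 37.4 and 58.2 in its own UTR 1392 and 1426 bp downstream. Dlx5, 18.7 kb from Dlx6, had its nearest peak 18.4 kb away in replicate 1 and 19 kb away in replicate 2. Msx2, of skull and limb, had 24.9 and 8.95, and Msx1 had 20.3 in replicate 1, while the replicate 2 peak of 20.1 lay 1032 bp away, just past the limit. Otx1 had 26.5 and 32.8 and Otx2, the regulator of the anterior brain, had 11.7 and 15.7. Gsx1, of ventral forebrain, had 7.01 and 19.4, and its sister Gsx2 had no peak within 8.1 kb. Emx1 and Emx2, of dorsal cortex, each had a low peak in 1 replicate, of 7.46 and 5.45. Six2, which maintains nephron progenitors, had 6.23 and 12.7, and Six3, of eye and forebrain, had 7.79 and 13.4. The Six3 peaks also lay within 1 kb of the start of the gene model Gm28528. Six6 had no peak within 1 kb.

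Of the neurogenic bHLH genes, which drive neuronal differentiation, Neurog2 had 31.9 and 41.8, whereas Neurog1 and Neurod1 had no peak within 1 kb. Among the SOX genes, Sox2, a factor of pluripotent cells and neural progenitors, had 13.2 and 10.4, in peaks on opposite sides of the TSS. Sox1, of neural progenitors, and Sox17, of endoderm and arteries, had none within 1 kb.

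Replicate error was larger at low values, and the median error of the 32 genes was close to that of other low genes. The median absolute log2 ratio of the replicates was 0.349 for the 32 genes, against 0.331 for 2282 other genes in the same range of values and 0.167 for all marked genes. The replicates were within 2-fold at 27 of the 32 genes, against 92.9% of the other genes in that range, and the largest log2 ratio was 1.48, at Msx2. Replicate 2 was the higher one at 19 of the 32. Tag counts per tallest peak ran from 8 to 110 in replicate 1 and from 9 to 123 in replicate 2, with medians of 34.5 and 35.5. The tallest peaks of both replicates overlapped at 25 of the 32 genes, and did not at Pax3, Lhx2, Lhx9, Dlx6, Otx2, Gsx1 and Sox2. Input signal at the tallest peaks was 0.3 to 2.4 in replicate 1 and 0.3 to 3.5 in replicate 2, under the 99th percentiles over all peaks of 4.9 and 5.6. The median fold over input at the 32 genes was 56.1 and 31.8, with minima of 5.72 at Dlx6 and 5.15 at Six3. Neighbours in the order of values often overlapped, as did Tbx15 (27.3 and 32.8) and Gata6 (30.4 and 26.1), and do not differ beyond their spread.

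By median distance, the tallest peak also lay farther from a start than over all marked genes. Other genes of similarly low value were not compared for distance. The tallest peak was a median of 171.5 bp from a TSS in replicate 1 and 252 bp in replicate 2 at the 32 genes, against 86 and 85 bp over all marked genes. In replicate 1 it lay downstream at 21, upstream at 5 and on the TSS at 6, and in replicate 2 it lay downstream at 16, upstream at 8 and on the TSS at 8. At all marked genes the tallest peak lay downstream in 67.6% and 66.8% of cases and covered a TSS in 16.9% and 17.5%. In 20 of the 32 genes the tallest peak of replicate 1 lay in a UTR, in 4 in a coding exon and in 8 in an intron. At 16 of the 32 genes in replicate 1 and 19 in replicate 2, at least 2 peaks lay within 1 kb, against 37.3% and 34.5% of all marked genes. These are descriptions of peaks of fixed size, 1 tallest per gene, and no test was made of them.

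Marked genes near another promoter need care. Beyond the 1 kb limit but within 10 kb, 6 of the 32 genes had a taller peak than their own in both replicates. For 5 of them it lay at the start of another gene model: at the Aatf start near Lhx1 (215 and 194.7), at the Mthfsd start near Foxc2 (256.3 and 285.7), at the start of 2310009B15Rik near Lhx9 (98.2 and 150.7), at the lincRNA Gm38708, 4077 and 4097 bp from a Gata2 start (152.7 and 163.4), and at the start of Nkx2-2os inside Nkx2-2 (36.6 and 32.8). At Tbx2 it lay in the gene's own UTR, 9378 and 9388 bp from the start (35.1 and 18.6). Those values were not counted for the 57 genes. Foxc2, Lhx1 and Lhx9 thus lay beside taller peaks at the starts of other genes.

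The next comparison set the 57 genes beside lists of other genes, as counts and medians without a test. The other genes of the same families were marked in 35 of 65 cases at a median of 47, and included Foxo1 (385.6), Foxo3 (285.1), Foxp1 (203.4) and Sox4 (199.7), factors with roles in many adult cells. A value of 100 or more was found at 0 of the 32 developmental genes, against 11 of these 35. Hox genes, which give position along the body axis, were closer to the 57 genes, with 17 of 39 marked, a median of 21.4 and a maximum of 96.8 at Hoxb4. Myeloid transcription factors such as Spi1 and Irf8 were marked in 35 of 35 cases at a median of 247.5, and 31 of the 35 had 100 or more. Genes of Polycomb and H3K4 methylation complexes, the machinery known to act on developmental promoters, were marked in 39 of 39 cases at a median of 251.

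**Figure D2:**
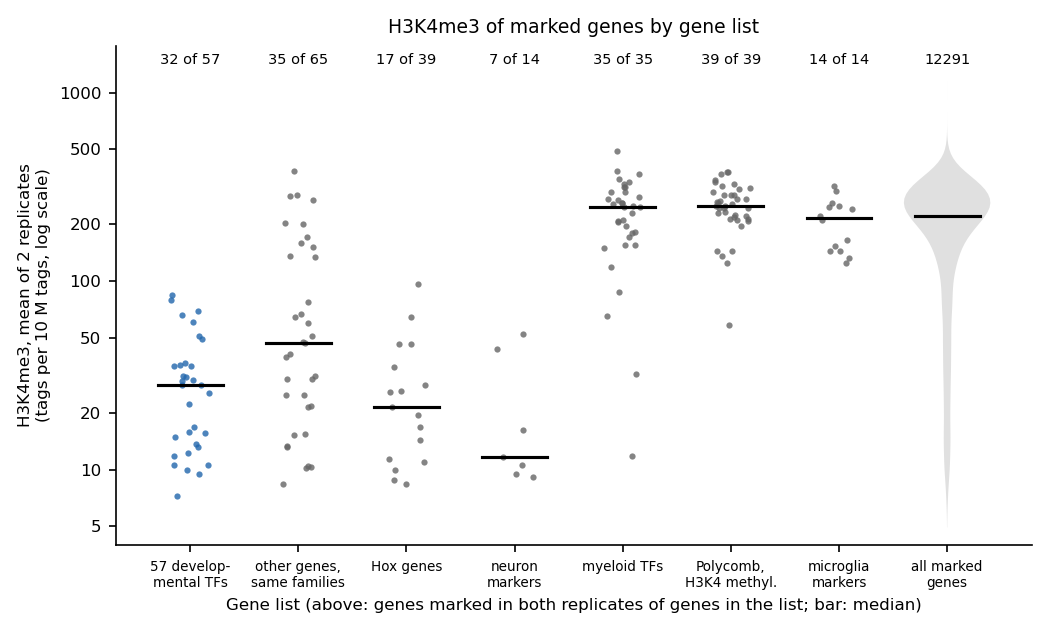
Mean H3K4me3 value of marked genes (tags per 10 M tags, log axis) by gene list; points are genes, bars are medians, the shape at the right is the distribution over all 12291 marked genes, and the numbers above give marked genes of the genes in the list. The 32 marked developmental genes lie between 7.25 and 84.5, near the range of marked Hox genes (8.4 to 96.8), while myeloid factors and microglia markers centre on 247.5 and 215.8.

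Markers of other brain cells were examined because a sort can carry such cells. Neuron markers were marked in 7 of 14 cases at a median of 11.7 (9.16 to 52.2), with no peak in either replicate at Gad1, Gad2, Slc32a1 and Nefl. Astrocyte markers were marked in 5 of 10 cases at a median of 20.5, with none at Gfap, Aqp4, Aldoc, S100b and Gjb6 but 208.8 at Slc1a3. Oligodendrocyte lineage markers were marked in 5 of 11 cases at a median of 22.5 (up to 186.6 at Mbp), with none at Mog, Sox10, Mobp and Cspg4. Endothelial and mural markers were marked in 4 of 12 cases at a median of 35.5 (up to 134.9 at Kdr), with none at Cdh5, Tek, Tie1, Rgs5 and Vtn. These values lay in the range of the 32 genes for most marked markers, and the part of other cells in the low marks of the 57 genes was not tested.

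CpG content was then compared, since H3K4me3 is known to be deposited at CpG islands. The 57 genes had a median of 70 CpG (8 to 121) in the 1 kb around their CpG-richest start, against 49 over all genes. All marked genes had a median of 69 and all unmarked genes had 12. The 32 marked genes had a median of 73.5 (45 to 121), and the 19 genes with no peak had 62 (8 to 89). Of the 48 genes with at least 49 CpG, 28 were marked, against 92.4% of all genes with as many. The 28 had a median value of 28.2, against 240.6 for all marked genes of such CpG content. At the low end, Tbx5, Pax8, Dlx1 and Pax5 had 8, 21, 31 and 37 CpG and no peak within 1 kb. At the high end, Six2 had 121 CpG and a value of 9.46, and Tbx1 had 117 and a value of 31.4. Among the 32 marked genes CpG and value were hardly related (Spearman's rho 0.0966, Pearson's r with the log2 value 0.0711, n = 32 genes, which share both libraries).

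**Figure D3:**
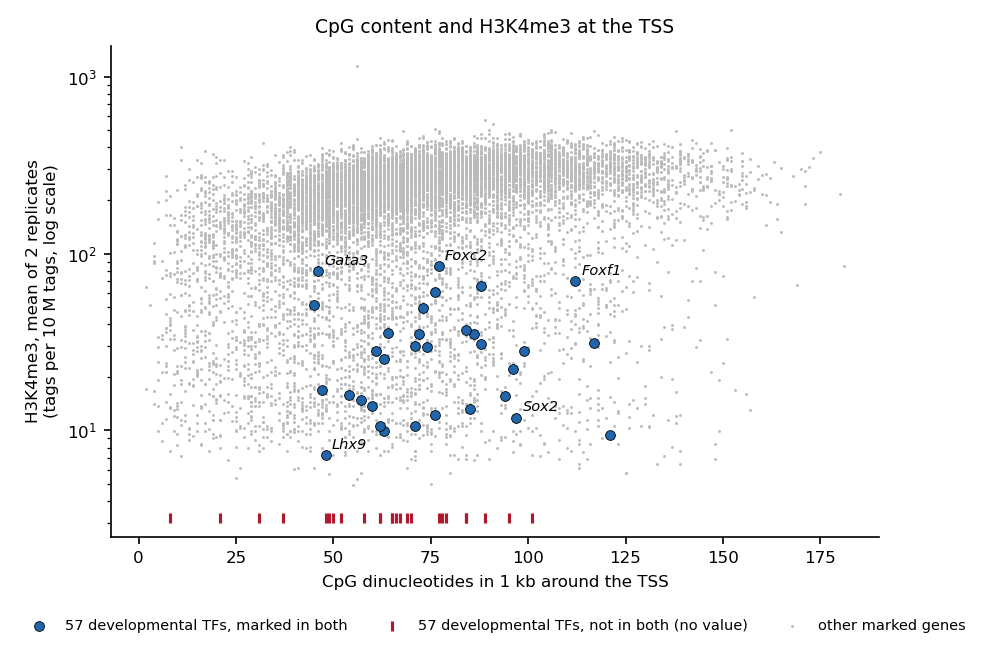
CpG dinucleotides in the 1 kb around the TSS (x) against the mean H3K4me3 value in tags per 10 M tags (y, log axis) for the marked developmental genes (blue) and other marked genes (grey); red ticks give the CpG count of the 25 developmental genes not marked in both replicates. The blue points lie in the low part of the grey cloud, where 2282 other marked genes share their range of values. The median of all marked genes at 49 CpG or more is 240.6. Most red ticks fall in the same range of CpG as the blue points.

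The 25 genes without a mark in both replicates ranged from genes that just missed the limit to genes in wide stretches without any peak. Just outside 1 kb in a replicate were Msx1 (1032 bp), Neurod1 (1053 bp), Emx2 (1069 bp), Foxd3 (1181 bp) and Dlx1 (1392 bp). At the other end, 6 genes had no peak of either replicate within 100 kb of a start: Isl1, Tbx3, Pax9, Tbx5, Pax7 and Nkx2-1. This was 6 of 57, against 14.8% of all genes, too few genes to read as a difference. Isl1, a motor neuron and heart factor, had its nearest peak 402.4 kb away in replicate 1 and 715.1 kb away in replicate 2. Tbx3, of limb and mammary gland, had its nearest 423.5 kb away in both. Pax9 and Nkx2-1, which are 154.9 kb apart on chromosome 12, had theirs 346.2 and 189.5 kb away in both replicates, so the stretch holds both genes. Pax7 had its nearest 209.7 kb away in both. The replicates gave the same distance within 1 kb for 5 of these 6 genes, with Isl1 as the exception.

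**Figure D4:**
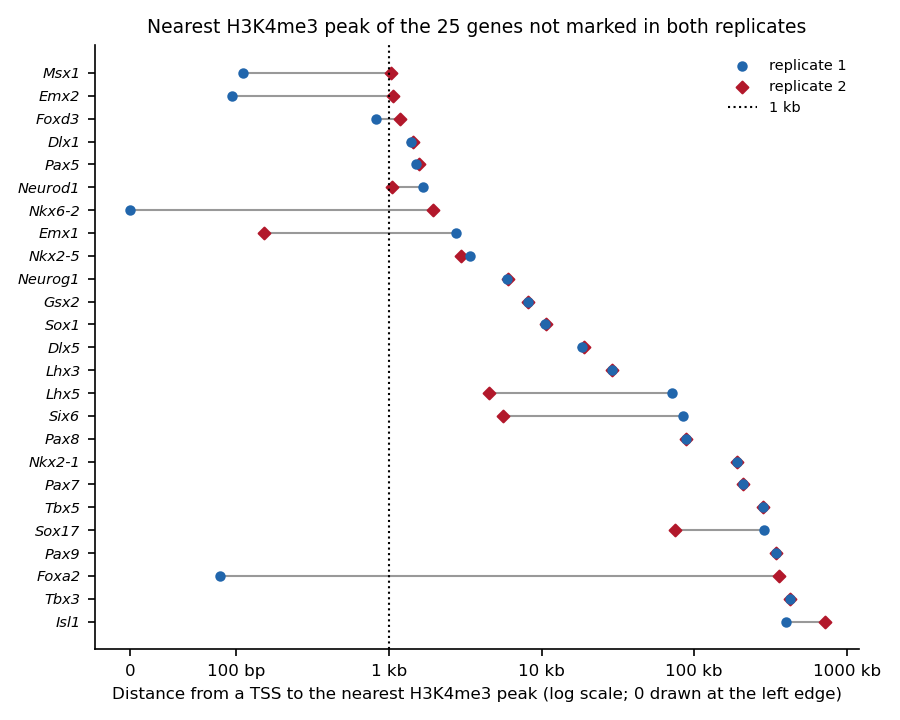
Distance from a TSS to the nearest H3K4me3 peak in replicate 1 (circles) and replicate 2 (diamonds), on a log axis, for the 25 developmental genes not marked in both replicates, ordered by the larger of the distances; the dotted line is 1 kb. Genes at the top missed the limit by little (Msx1 at 1032 bp), and Isl1 at the bottom has no peak within 402.4 kb.

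The second feature was the set of promoter contacts. PLAC-seq was used by the study to ask which distant regions promoters reach, and a gene was counted here when its TSS bin was an anchor of a called interaction. Of the 57 genes, 11 had an interaction (19.3%), against 24.7% of all genes. Of the 32 marked genes, 10 had at least 1 (31.2%), against 37.8% of all marked genes. Both shares lay near the background, on its lower side, and the differences, of few genes, were not tested. With at least 20 read pairs 4 of the 57 had an interaction (7.02%), against 14.9% of all genes, and at a false discovery rate held to 0.0001, 6 of the 57 had one, against 15.8% of all genes. The 11 genes had 35 interactions in 15 clusters, with 8 to 27 read pairs each. Their median was 12 read pairs, against 17 over all interactions, and the median ratio of read pairs to the expected number was 4.85, against 4.03. They reached far: the median distance was 315 kb (70 to 600), against 125 kb over all interactions. The neighbours Foxc2 and Foxf1 gave 7 interactions each, and the neighbours Dlx1 and Dlx2 gave 5 and 2. Several of these went to shared or adjacent partner bins, so these gene pairs weigh heavily in the medians. As the list combines both libraries, none of these values has a replicate error. Myeloid transcription factors had an interaction in 80% of cases and Hox genes in 38.5%.

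The forkhead pair on chromosome 8 held the most. Foxc2 had 7 interactions at 275 to 425 kb, all downstream. The strongest joined its bin (121115001 to 121120000) to 121505001 to 121510000, with 24 read pairs at an expected number of 2.68 (ratio 8.97) and a false discovery rate of 9.18e-13. Foxf1 also had 7. The strongest joined its bin (121080001 to 121085000) to 121515001 to 121520000, with 17 read pairs against 2.2 (ratio 7.74). The genes shared the partner bins at 121510001 and 121520001, which also contacted the bin of Mthfsd, a gene with H3K4me3 of 271, with 12 and 9 read pairs. The partner bin of the strongest Foxc2 interaction contacted the Mthfsd bin too, with 15 read pairs (ratio 7.13), as did the one at 121540001, with 9. Neighbouring bins cannot be told apart at this resolution as the source of a contact. The other 3 interactions of Foxf1 went the opposite way, to 120805001 to 120830000, where the nearest marked start was that of Irf8, a microglial transcription factor gene, 66.4 to 86.4 kb from those bins. All but 1 of the 12 distinct partner bins of these 14 interactions lay in introns of Gm20388, a single gene model of 4.43 Mb (119910841 to 124345722) that spans the whole region, so the annotation says little about them. The exception held the start of 1700018B08Rik.

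Dlx1 and Dlx2 contacted the gene of integrin alpha 6, Itga6, on chromosome 2. Dlx1 had 5 interactions, 270 to 315 kb long. In the strongest, 20 read pairs against 2.83 (ratio 7.06) joined it to an exon of Itga6 (71820001 to 71825000). Dlx2 had 2, with ratios of 6.05 and 5.49, and shared that partner bin. The Itga6 start itself, with a value of 333.9, lay 33 kb from it. Dlx1 was the only gene of the 11 not marked by the 1 kb rule, but its TSS bin held the peak in its UTR named above.

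Neurog2 had 2 interactions, of which the stronger reached an exon of 9830132P13Rik 315 kb away with 22 read pairs against 2.84 (ratio 7.74), and the other an intron of Alpk1 (17 against 3.77). Six3 had 2, at 430 and 435 kb, to neighbouring bins in an intron of Camkmt, with ratios of 5.75 and 4.97. The farther bin was the only partner bin of the 35 interactions with a peak of both replicates, of 9.35 and 7.46. Foxc1 had 3, at 590 to 600 kb, the longest of the 35, with 8 or 9 read pairs each. Tbx2 had 3, to introns of Bcas3 on one side and Brip1 on the other, with ratios of 4.6 to 4.96. Lhx1 had 2 short ones, at 70 and 85 kb, to intergenic bins. The stronger held 27 read pairs, the most of the 35, against 6.86 (ratio 3.93). Gata4 had 1 at 175 kb (ratio 3.79), whose partner bin also contacted the bin of Neil2, a DNA repair gene, with 22 read pairs against 2.77. Lhx2 had 1 at 310 kb (ratio 4.29). Gata3, Gata2 and Isl2, which were among the 6 genes with values of 50 or more, had no called interaction.

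The 35 interactions had 32 distinct partner bins, of which 30 held no H3K4me3 peak of either replicate and 1 held a protein-coding start. By place, 19 bins lay in introns, 11 of them in Gm20388, 5 in exons, 1 in a UTR and 7 between genes. A gene with no called interaction is not shown to lack contacts, since the authors called interactions from bins with H3K4me3.

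**Figure D5:**
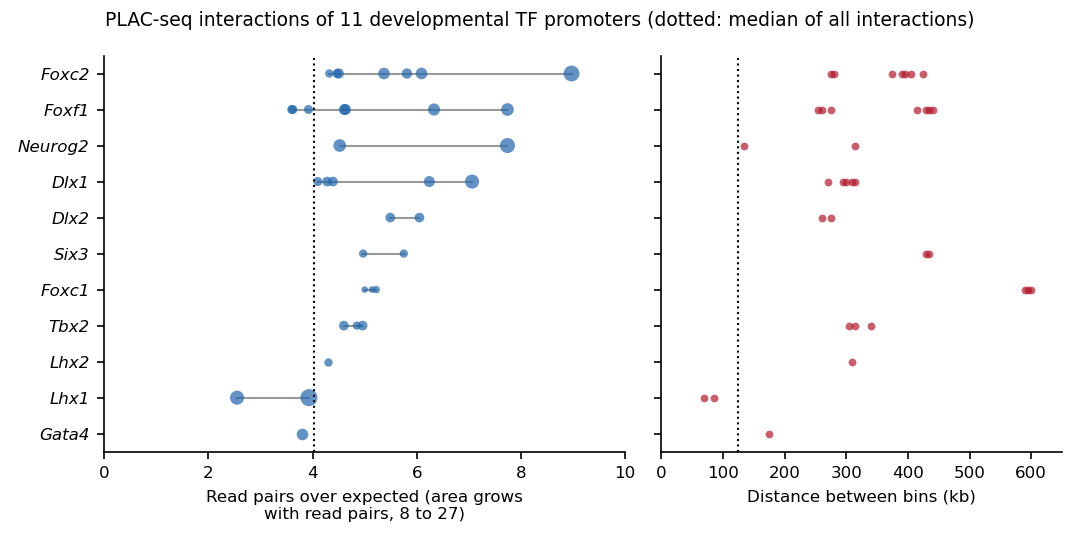
Interactions of the 11 developmental genes with at least 1: read pairs over expected (left, point area grows with the number of read pairs) and distance between the bins in kb (right), 1 row per gene, with the median of all interactions as dotted lines (4.03 and 125 kb). Foxc2 reaches 8.97, Foxc1 has the longest distances at 590 to 600 kb, and only Lhx1 lies under the dotted line on the right.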

How the data were processed

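H3K4me3 ChIP-seq and PLAC-seq files of wild-type microglia were used. For each ChIP-seq library the authors deposited 1 peak list (Bowtie2, HOMER and mm10 are named in the submitters' processing notes), and replicates were not pooled. The authors' deposited signal gives tags per 10 M tags in each peak, and their tag count is a whole number. The authors also deposited input signal, fold over input (a ratio), a p-value against input, a focus ratio (a fraction) and a peak score, of which the last 2 were not analysed further. Only called peaks are listed, so a gene without a peak is not shown to lack the mark. For PLAC-seq the authors deposited 1 list, called with MAPS 1.1.0 in bins of 5 kb from both libraries combined, with a read pair count, an expected count from the caller's regression and a false discovery rate (an adjusted p-value) per interaction. Its depth is unknown.

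Starts of protein-coding transcripts came from GENCODE M21 (basic set, GRCm38), CpG counts from the genome 500 bp on each side of the CpG-richest start, and promoter sequences from RefSeq (GRCm38.p6). A peak counted within 1 kb of any start of a gene, and an interaction when an anchor bin held a start. The assignment of peaks was tested on simulated peaks placed at known distances from real starts. Exact Poisson intervals at the 95% level were computed for tag counts and cover counting error only. The members and all gene lists were chosen with earlier results of these data known. All 57 genes are accounted for; every marked gene was named with both values, every gene with an interaction with its number of interactions, and genes outside the 57 only as neighbours, partners, markers or examples of a list. Other distances, peak heights, starts, replicates and interaction thresholds were tried as alternatives. No test was made, since 1 group of 2 replicates was used. Computations used Python 3.11.15, pandas 2.3.3, numpy 2.4.6 and scipy 1.17.1.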

Additional observations from a re-analysis of the deposited data

How the results depend on the processing

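The number of marked genes stayed within 1.5 times 32 under 9 of 11 alternatives, from 25 with peaks of at least 10 times input to 41 within 5 kb. The 2 others gave 7 with a peak on the TSS itself (7.97% of all genes) and 18 with peaks of at least 20 tags per 10 M (54.9% of all genes). With replicate 2 alone the number was 33 (57.9%, against 60.2% of all genes) and the median value 26.1. With replicate 1 alone it was 37 (64.9%, against 61.4%) and the median value 21. The median value was 38.2 on the TSS, 27.6 within 500 bp, 25.4 within 5 kb, 35.5 with peaks of at least 20, 30.9 with peaks of at least 10 times input, 26.8 with the starts of all transcripts and 21.3 with a peak in either replicate, each time under the median of all marked genes (154.1 or more). The number of genes with an interaction was 6 when the false discovery rate was held to 0.0001 (15.8% of all genes) and 4 with at least 20 read pairs (14.9% of all genes), and the number of interactions was 12 and 5, or 12 with summits and single interactions only. Bins that the authors annotate with the gene, an alternative added after the data were seen, gave 12 genes and 39 interactions and added Nkx6-1. Tag counts as low as 8 per peak limit what can be said of single low genes. No paired analysis was possible because all samples used belong to 1 group and no test was made.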
